A study of Mus musculus with 60 samples.

Results

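The poly-A RNA of whole spleen was compared between Ftsj1-deficient and wildtype mice. All 55290 named genes of the spleen poly-A comparison were taken, of 368645 named entries in the 25 comparisons of the series, and they rest on 6 of its 60 samples. Each of 3 male mice with the genotype given as Ftsj1_DF and 3 male wildtype mice, aged 4 months and fed ad libitum without treatment, gave 1 spleen library. All carry the same batch label, 2 litters of brothers each hold both genotypes, and the whole organ was frozen and pulverised, so that its cell types are mixed in each library. The sources used here do not say how the gene was disrupted. The study's title is about effects of the deficiency on networks of non-coding RNA in mouse organs; the poly-A libraries hold mainly messenger RNA.

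FTSJ1 is an X-linked enzyme that methylates the ribose of nucleotides in the anticodon loop of several tRNAs, and it works with THADA for one position of the loop and with WDR6 for another. The spleen filters blood in its red pulp, where macrophages take up old red cells and recycle their iron, and holds lymphocytes in its white pulp. In mice the red pulp also makes blood cells, among them neutrophils, whose granules carry proteases and peroxidase that are made early in their development, and it stores mature neutrophils and monocytes.

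The authors' deposited table gives 1 mean level per gene, which is the mean over 6 libraries of reads divided by each library's size factor, a measure of its depth. Since reads are whole numbers, they were solved per library from this mean, and a solution was kept only where it also gave the deposited log2 fold change within 1e-09. This gave reads for 13094 of 13174 genes (99.4%) at a mean of 5 to 1500, and for 176 of 356 chosen genes above that. Levels below are these reads divided by the size factor, called normalised reads. Libraries are numbered by depth within a genotype, since which mouse gave which library is not told by the table. The size factors were 1.55, 1.13 and 1.06 in the deficient libraries and 1.02, 0.76 and 0.727 in the wildtype libraries, so every deficient library was deeper than every wildtype one. Fewer cells of a type and less RNA per cell cannot be told apart in whole spleen.

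Defining spleen genes were abundant in the authors' deposited table, with means of 64726 for Cr2 of B cells, 13320 for Spic of red pulp macrophages and 195344 for Jchain of plasma cells, while Ms4a1, Ccl19 and Ccl21a, also known from spleen, are listed at 0 for a reason not given. The libraries did not separate cleanly by genotype. Wildtype library 1 was the lowest of the 6 for 22.8% of 11337 genes with solved reads at a mean of 10 to 1500. Deficient library 3 was the lowest for 21%, wildtype library 3 for 18.9% and deficient library 1 for 9.28%. Across these genes, which are not independent replicates, the deviations of deficient library 3 from the mean of 6 went with those of wildtype library 1 (r = 0.31). With deficient libraries 1 and 2 its r was -0.37 and -0.26. Deviations from a mean of the same 6 libraries are pushed to negative r, so such values alone do not show opposition. The lowest r of any pair was -0.54, between deficient library 1 and wildtype library 1, while deficient libraries 1 and 2 had 0.21. Among 12892 coding genes at a mean of 100 or more, the deposited log2 fold change was related to the length of the longest transcript (Spearman's rho -0.48, across genes, which are not independent replicates). The median was 0.19 in the quintile of genes with the shortest transcripts and -0.12 in the quintile with the longest. By library, the median of deficient library 3 went from 0.22 to -0.32 between these quintiles, that of wildtype library 2 from -0.13 to 0.19 and that of wildtype library 3 from -0.12 to 0.18 (log2 of the library over the mean of 6). Wildtype library 1 went from -0.01 to -0.25 and so ran like deficient library 3. Length therefore moved with 1 deficient and 2 wildtype libraries in opposite directions, and its part in the results below was not tested beyond the values given with them.

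**Figure D1:**
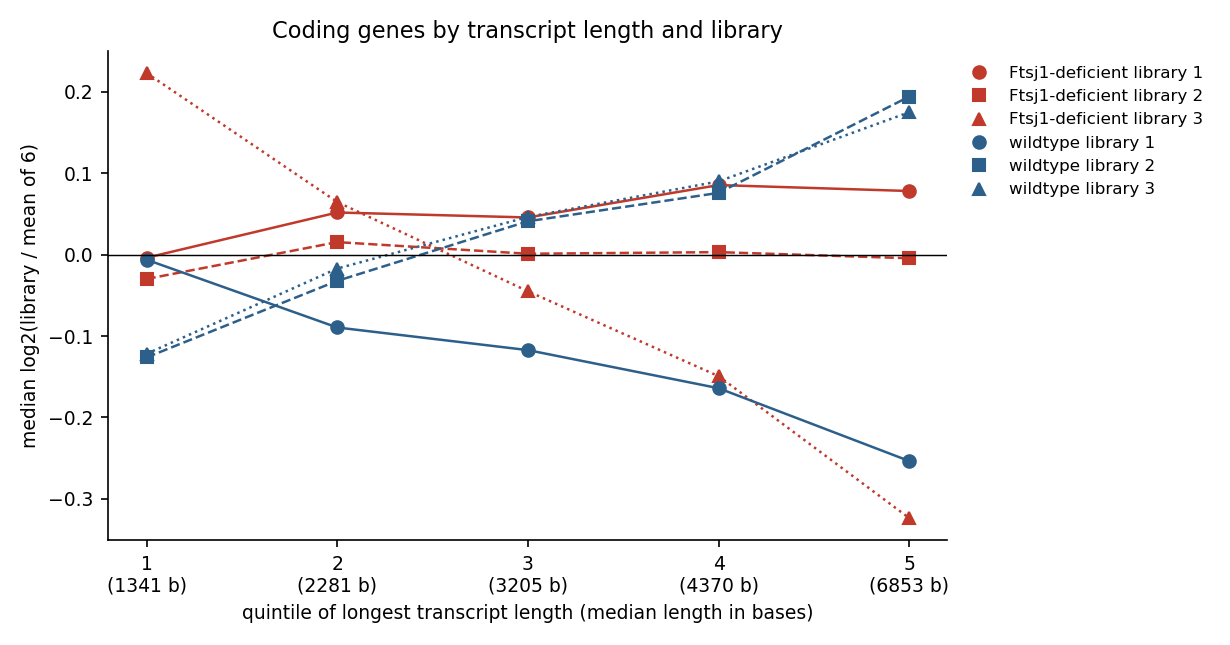
Median log2 of each library's normalised reads over the mean of the 6 libraries (vertical axis) in quintiles of coding genes by longest transcript length (horizontal axis, median length in bases), for genes with solved reads. Deficient library 3 falls from 0.22 to -0.32 and wildtype library 1 from -0.01 to -0.25, while wildtype libraries 2 and 3 rise to 0.19 and 0.18.

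Ftsj1 RNA was low in every deficient library. It stood at 171, 164 and 125 normalised reads in the deficient libraries (mean 153 ± 24.6, SD, n = 3) and at 1670, 1763 and 1710 in the wildtype libraries (mean 1714 ± 46.3, SD, n = 3). The groups did not overlap. The log2 fold change in the authors' deposited table was -3.48 ± 0.18 (SE), with a DESeq2 adjusted p of 4.28e-79 (Benjamini-Hochberg). Some Ftsj1 RNA was still counted in all 3 deficient libraries.

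Genes that work with FTSJ1 did not pass the test. Thada, a partner for tRNA methylation, had a log2 fold change of -0.33 ± 0.16 in the authors' deposited table (unadjusted DESeq2 p 0.035). Wdr6, the other partner, lay nearer to 0 there than its SE of 0.14. Trmt13, which methylates ribose in the acceptor stem of tRNAs, stood at 1195, 1051 and 888 normalised reads in the deficient libraries and at 1154, 1360 and 1335 in the wildtype ones, so that the groups overlapped. None of 65 tRNA modification enzymes was called or had an unadjusted p under 0.05, with 40 above 0 and a median log2 fold change of 0.03. For all 21461 genes tested at a mean of 10 or more, 53.2% lay above 0, the median was 0.02, and 3.37% were higher and 2.95% lower at an unadjusted p under 0.05. The 21 aminoacyl-tRNA synthetases, which charge tRNAs with their amino acids, held no such gene either, with a median of 0.09. Of 25 neighbours of Ftsj1 on the X chromosome, 12 lay above 0, and none was called or had an unadjusted DESeq2 p under 0.05 (median -0.01).

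The authors' deposited table calls 17 of 22947 genes with an adjusted p at the DESeq2 threshold of 0.05 (0.0741%), 11 of which rose (0.0479%) and 6 fell (0.0261%), Ftsj1 among the latter. The genes that rose were Prtn3, Wfdc21, Wfdc17, Clec4e, Tyrobp and Lgals3, known from neutrophils, monocytes and macrophages, with Prg2, Msrb1, Hspb1 and 2 antibody segments. Those that fell beside Ftsj1 were the transcription factor gene Mef2c, the sodium channel gene Scn11a and the predicted genes Gm4355, Gm29461 and Gm49742. Of the rising coding genes, Hspb1, Prtn3, Prg2, Wfdc21, Wfdc17, Tyrobp, Lgals3 and Msrb1 are in the quintile of genes with the shortest transcripts. Clec4e is in quintile 2, and Scn11a and Mef2c are in the quintile with the longest. Less its quintile's median, Prtn3 was at 1.52, Wfdc21 at 1.25, Wfdc17 at 0.97, Clec4e at 1.04, Prg2 at 0.59 and Scn11a at -0.72 (log2). Reads per library were solved for 13 of the 17, and in all 13 the deficient and wildtype libraries did not overlap. Among 11337 genes with solved reads at a mean of 10 to 1500, every deficient library was above every wildtype one for 5.57% and below for 6.4%.

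The calls other than Ftsj1 depended on the test. On the 11337 genes, 9 of which the deposited DESeq2 test calls, limma on log2(normalised reads + 1) called Ftsj1 (adjusted p 0.000749), gave an adjusted p of 0.883 to the other 8 and gave 561 genes an unadjusted p under 0.05.

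**Figure D2:**
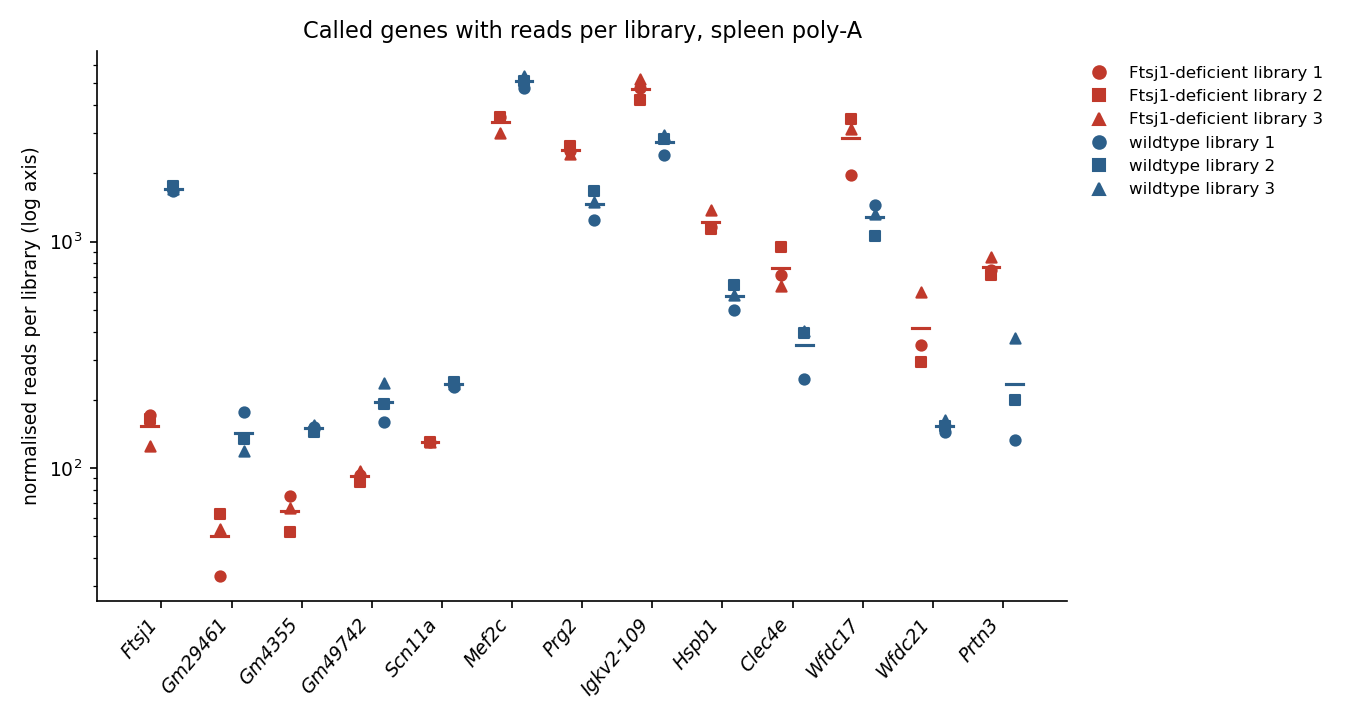
Normalised reads (vertical log axis) of the 13 called genes with solved reads, with 3 Ftsj1-deficient (red) and 3 wildtype (blue) libraries per gene and a bar at each group's mean. No gene's groups overlap; Ftsj1 is at 125 to 171 in deficient and 1670 to 1763 in wildtype libraries.

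Genes of granules made by immature neutrophils had higher levels in the deficient libraries. Prtn3, which encodes proteinase 3, rose by 1.72 ± 0.36 (log2, SE) in the authors' deposited table (DESeq2 adjusted p 0.0102). Its level was 749, 709 and 858 normalised reads in the deficient libraries and 133, 199 and 376 in the wildtype ones. Every deficient library lay above every wildtype library. Elane, which encodes neutrophil elastase, had 742, 661 and 968 against 129, 234 and 501, and its deposited log2 fold change of 1.46 ± 0.44 did not pass (DESeq2 adjusted p 0.224). Mpo, the gene of myeloperoxidase, had 1125, 948 and 1215 against 179, 475 and 648 (log2 fold change 1.34 ± 0.40, DESeq2 adjusted p 0.23 by the authors' deposited table). Ctsg, the gene of cathepsin G, had 292, 255 and 291 against 42, 112 and 160. For all 4 genes the groups did not overlap, wildtype library 1 was the lowest and wildtype library 3 the highest wildtype library.

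The 250 bases before the RefSeq start of Prtn3, Elane and Mpo are shown, with their windows in GRCm38.p6, because the order of the libraries was alike in these genes. Prtn3 lies at chr10:79879417-79879666, Elane at chr10:79886062-79886311 and Mpo at chr11:87793534-87793783, all on the plus strand. Capitals mark GAGGAA, the core bound by PU.1 and other ETS factors of myeloid cells, searched on both strands. It occurs once in Prtn3 and Elane, starting 95 and 85 bases before the start, and 2 times in Mpo, the nearer starting 224 bases before it. Of 27025 such windows 23.1% hold it, and a match is a description of the letters, not a site. The C/EBP pattern TTNNGNAA, held by 36.9% of windows, is not in these. The window of the called gene Clec4e, searched in the same way and not shown, holds the C/EBP pattern 2 times and GAGGAA 2 times.
Prtn3: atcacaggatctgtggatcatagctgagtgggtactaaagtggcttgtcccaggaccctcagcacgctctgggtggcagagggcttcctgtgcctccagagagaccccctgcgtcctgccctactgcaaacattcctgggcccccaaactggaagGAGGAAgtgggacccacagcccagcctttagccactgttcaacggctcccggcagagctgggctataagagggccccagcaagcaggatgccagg
Elane: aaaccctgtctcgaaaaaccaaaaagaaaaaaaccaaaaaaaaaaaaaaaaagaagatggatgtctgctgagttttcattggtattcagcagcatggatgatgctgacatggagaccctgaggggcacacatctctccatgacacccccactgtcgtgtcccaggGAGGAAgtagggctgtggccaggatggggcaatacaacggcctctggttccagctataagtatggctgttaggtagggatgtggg
Mpo: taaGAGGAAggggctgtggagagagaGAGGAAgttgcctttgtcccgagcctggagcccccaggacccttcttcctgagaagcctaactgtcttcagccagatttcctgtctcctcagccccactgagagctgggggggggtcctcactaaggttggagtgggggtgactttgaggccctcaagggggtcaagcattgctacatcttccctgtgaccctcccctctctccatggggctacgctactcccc

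The list of granule genes covers immature myeloid cells and is not of neutrophils alone, since it holds Prg2 of eosinophil granules. Its 14 genes with a test held 2 that rose, Prtn3 and Prg2, and 13 above 0. Of these 7 had an unadjusted p under 0.05, and the median log2 fold change was 1.10 in the authors' deposited table. Camp, which encodes an antimicrobial peptide of secondary granules, had 2151, 1813 and 3077 normalised reads in the deficient libraries against 485, 968 and 1759. Cebpe, the gene of a transcription factor of granule formation, had 302, 189 and 175 against 15.6, 101 and 184, and here wildtype library 3 lay within the deficient range. Fcnb, the gene of ficolin B, had 350, 278 and 330 against 25.4, 151 and 341, with the same overlap. Summed over the 11 granule genes with solved reads, the level was 9818, 8965 and 11219 in the deficient libraries and 3828, 5179 and 6915 in the wildtype libraries. The sums of the genotypes did not overlap. They include Prg2, at 2516, 2629 and 2426 against 1244, 1665 and 1487, so they do not describe neutrophil genes alone.

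Genes of mature neutrophils had the same sign throughout. All 23 tested lay above 0, 13 of them with an unadjusted p under 0.05, and the median log2 fold change was 1.03. Wfdc21, which encodes a secreted protein of the whey acidic protein family, was the 1 member called, and rose by 1.44 ± 0.31 in the authors' deposited table (DESeq2 adjusted p 0.0172). It had 348, 294 and 599 normalised reads in the deficient libraries against 144, 153 and 162, with deficient library 3 the highest. S100a8 and S100a9, whose products form calprotectin, lay at 1.50 ± 0.48 and 1.55 ± 0.45 (log2) by the authors' deposited table and did not pass. Trem3, a receptor gene of myeloid cells, was the uncalled gene of the list nearest the threshold (DESeq2 adjusted p 0.058), with 496, 670 and 534 against 179, 266 and 336. Hdc, which encodes the enzyme that makes histamine, had 1554, 1573 and 1128 against 382, 727 and 920. Clec4d, the gene of a lectin receptor expressed with that of Clec4e, had 1185, 1100 and 1035 against 163, 464 and 715. Mmp8, the gene of neutrophil collagenase, had 1059, 846 and 699 against 63.5, 508 and 751, so that wildtype library 3 was above deficient library 3.

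Wildtype library 1 had the lowest level of 20 of the 23 neutrophil and granule genes with solved reads. Over all 11337 genes with solved reads at a mean of 10 to 1500 it was the lowest for 22.8%. Summed over the 13 mature neutrophil genes with solved reads, the level was 9946, 9262 and 9776 in the deficient libraries and 2576, 4979 and 6977 in the wildtype libraries. The median over these 13 was 0.98 with all 6 libraries and 0.78 without wildtype library 1. For the 11 granule genes it was 1.14 with all libraries, 0.78 without wildtype library 1 and 1.85 without wildtype library 3. Without wildtype library 1 all 23 genes kept a higher mean in the deficient libraries. Less the median of their quintile of transcript length, the medians over all tested members were 0.90 for mature neutrophils and 0.92 for granule genes. The wildtype sums ranged more widely than the gap between the nearest libraries of the genotypes.

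**Figure D3:**
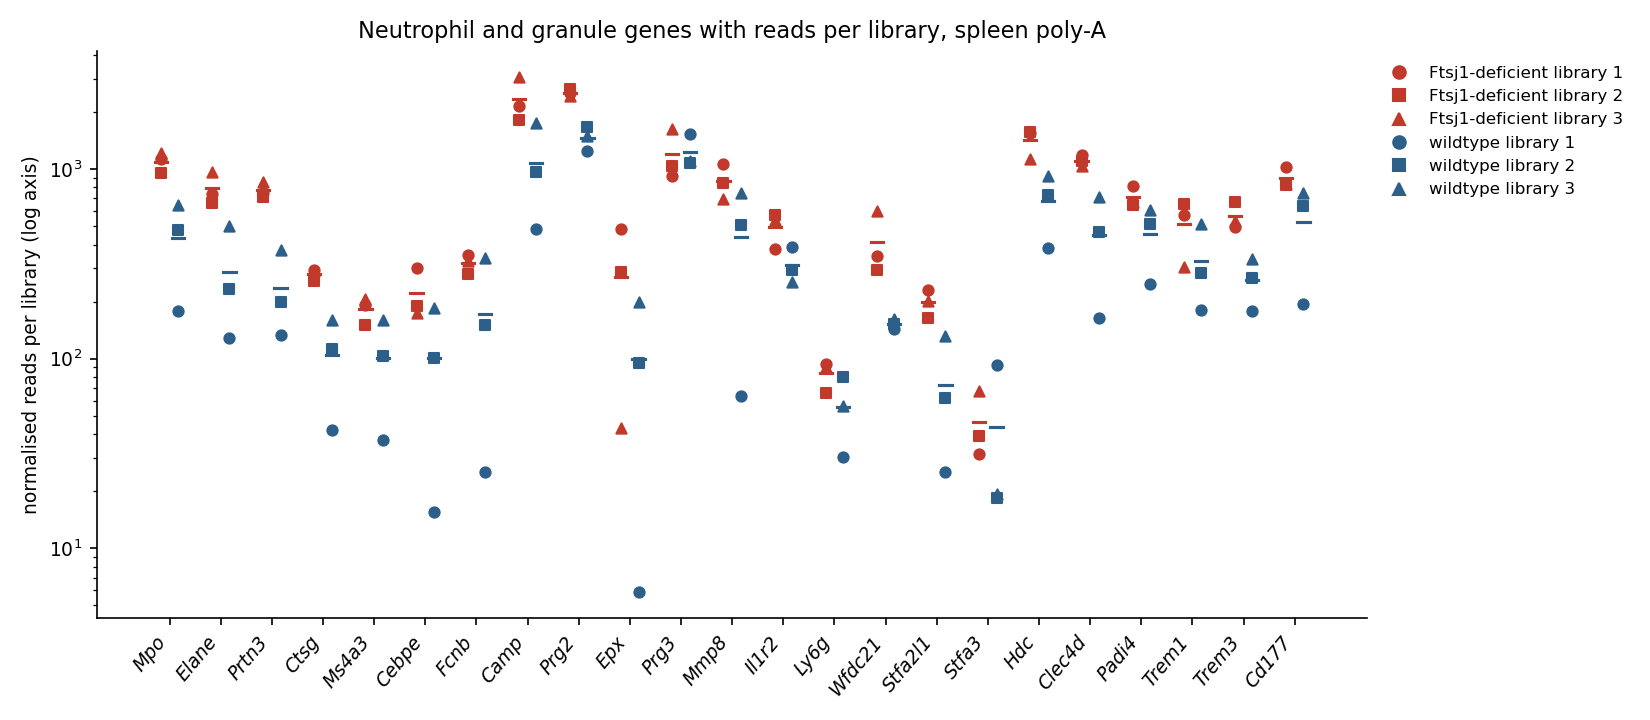
Normalised reads (vertical log axis) of neutrophil and granule genes with solved reads in 3 Ftsj1-deficient (red) and 3 wildtype (blue) libraries. Wildtype library 1 is lowest in 20 of 23 such genes, and 13 of the 23 have no overlap between the groups. Over all genes with solved reads at a mean of 10 to 1500, wildtype library 1 is lowest in 22.8%. Every deficient library is above every wildtype one in 5.57% of them and below in 6.4%.

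Other myeloid genes that rose were spread over several cell types. Prg2, which encodes the major basic protein of eosinophil granules, had 2516, 2629 and 2426 normalised reads in the deficient libraries against 1244, 1665 and 1487, and rose by 0.79 ± 0.17 in the authors' deposited table (DESeq2 adjusted p 0.0102). Epx, the gene of eosinophil peroxidase, had 482, 288 and 43.3 against 5.86, 94.7 and 199, and Prg3, a homologue of Prg2, had 917, 1043 and 1631 against 1534, 1075 and 1100. The eosinophil genes therefore did not share the order of the libraries that Prg2 showed. Of 15 genes of basophils, mast cells and eosinophils 14 lay above 0, 3 with an unadjusted p under 0.05, and the median was 0.29. Over the 12 with solved reads it was 0.36, and 0.13 without wildtype library 1, 0.20 without deficient library 1 and 0.67 without wildtype library 3.

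Clec4e, the gene of the receptor Mincle, which senses mycobacterial lipids and dead cells, had 709, 947 and 638 normalised reads in the deficient libraries against 246, 396 and 404. It rose by 1.14 ± 0.27 in the authors' deposited table (DESeq2 adjusted p 0.0399). Wfdc17, another whey acidic protein gene of myeloid cells, had 1957, 3493 and 3130 against 1446, 1062 and 1324, and rose by 1.16 ± 0.26 in the authors' deposited table (DESeq2 adjusted p 0.0194). Deficient library 1 was here the nearest to the wildtype libraries. Tyrobp, the gene of an adaptor of many myeloid and natural killer receptors, Lgals3, that of galectin 3, and Msrb1, that of a selenoprotein that reduces oxidised methionine, rose by 0.66 ± 0.15, 0.67 ± 0.15 and 0.58 ± 0.13 in the authors' deposited table (DESeq2 adjusted p 0.0199, 0.0207 and 0.0207). Their means of 19124, 11010 and 7825 were too high to solve reads per library. Less the median of their quintile of transcript length, the log2 fold changes were 0.47, 0.48 and 0.39.

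The lists of monocytes, red pulp macrophages, cytokines, interferon-stimulated genes and megakaryocytes held no call, and most of their members lay above 0. Of 15 monocyte genes 14 lay above 0, 4 with an unadjusted p under 0.05, with a median of 0.30. Of 21 genes of red pulp macrophages and iron recycling 20 lay above 0 and 5 had an unadjusted p under 0.05 (median 0.38), among them C1qb, of the first component of complement, at 0.72 ± 0.29 and Ftl1, the ferritin light chain gene, at 0.65 ± 0.25 in the authors' deposited table. Of 27 genes of inflammatory cytokines and chemokines 21 lay above 0 and 6 had an unadjusted p under 0.05 (median 0.37). Il1b, which encodes interleukin 1 beta, was at 0.82 ± 0.23 in the authors' deposited table (DESeq2 adjusted p 0.193). Ccl3, a chemokine gene, had 168, 207 and 205 normalised reads in the deficient libraries against 125, 47.4 and 110, without overlap. Interferon-stimulated genes lay above 0 in 29 of 36, with Isg15 at 0.87 ± 0.27 in the authors' deposited table, and had a median of 0.23. All 18 megakaryocyte and platelet genes lay above 0 (median 0.33), 4 with an unadjusted p under 0.05. Less the median of each gene's length quintile, the list medians were 0.33 for monocytes, 0.29 for red pulp macrophages and 0.18 for cytokines. For interferon-stimulated genes this was 0.17 and for megakaryocytes 0.24. Over members with solved reads, the megakaryocyte median went from 0.28 to 0.18 without wildtype library 2 and 0.55 without wildtype library 3. The cytokine median went from 0.38 to 0.58 without wildtype library 3, and the interferon one from 0.21 to 0.12 without deficient library 3.

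Of 35 globin and red cell genes 34 lay above 0, 6 with an unadjusted p under 0.05, and the median was 0.45. The 4 adult globin genes held 1.94% of the summed level and lay between 0.77 for Hba-a1 and 0.91 for Hbb-bt in the authors' deposited table; members of each pair are near-identical, and their split is uncertain. Tspo2, a gene of late red cell precursors, had 657, 224 and 1192 normalised reads in the deficient libraries against 280, 375 and 521, so that the groups overlapped. Over the 9 red cell genes with solved reads the median was 0.54, and 0.10 without deficient library 3, 0.21 without wildtype library 1 and 0.84 without wildtype library 3. Alas2, the gene of the first enzyme of haem synthesis in red cells, is listed at 0.

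**Figure D4:**
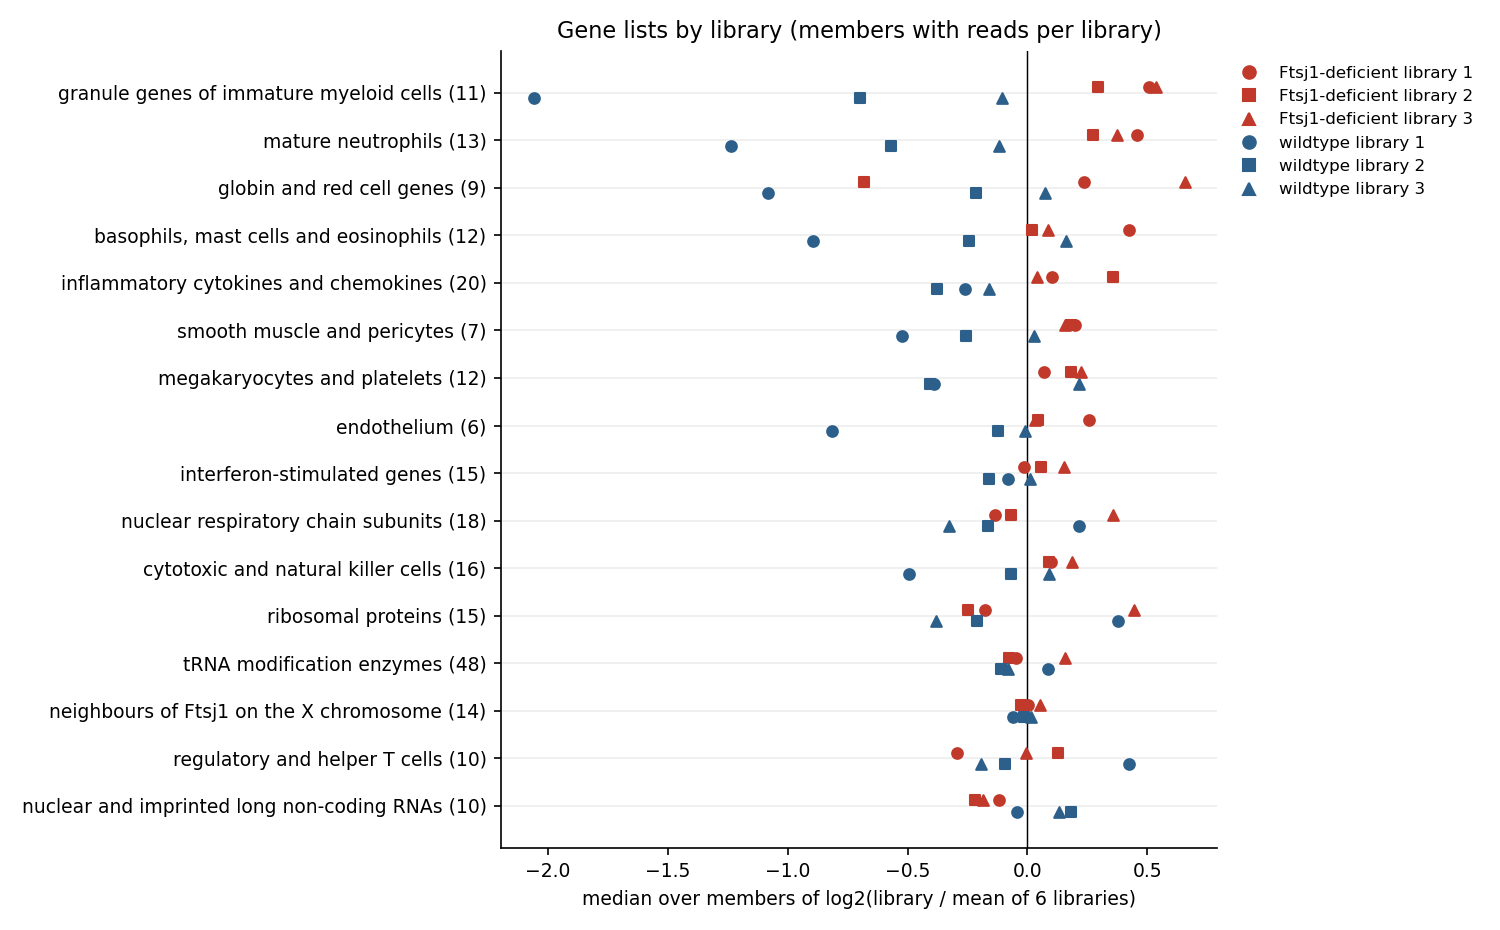
Median log2 of library over the mean of 6 libraries for members with solved reads of selected gene lists, by library (3 Ftsj1-deficient in red, 3 wildtype in blue). The medians of mature neutrophil and granule genes lie above 0 in the deficient and below 0 in the wildtype libraries, wildtype library 1 the lowest, while those of ribosomal protein genes are highest in deficient library 3 and wildtype library 1.

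Hspb1, which encodes a small heat shock protein that binds unfolded proteins and actin, gave the smallest adjusted p after Ftsj1. Its level was 1160, 1131 and 1382 normalised reads in the deficient libraries (mean 1224 ± 137, SD, n = 3) and 498, 643 and 579 in the wildtype libraries (mean 574 ± 72.7, SD, n = 3). It rose by 1.10 ± 0.18 in the authors' deposited table (DESeq2 adjusted p 2.1e-05), and the groups did not overlap. Less the median of its quintile of transcript length the log2 fold change was 0.90. Other heat shock genes did not pass the test. Hspa1b, the gene of an inducible Hsp70, had 1679, 1794 and 893 against 723, 1381 and 1312, and the groups overlapped. Dnajb1, the gene of its cochaperone, was at -0.23 ± 0.14 in the authors' deposited table. Cryab, of another small heat shock protein, had 1269, 1229 and 1241 against 778, 1110 and 1213, and Bag3, of a partner of small heat shock proteins, 2298, 2781 and 2369 against 1909, 2145 and 2240. In both the deficient libraries lay above the wildtype ones, by little in the nearest pair. Over 24 heat shock and chaperone genes 1 was called, 20 lay above 0 and the median was 0.11. Over the 6 with solved reads it was 0.37, 0.15 without wildtype library 1 and 0.57 without deficient library 3.

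The 250 bases before the RefSeq start of Hspb1, chr5:135887669-135887918 of GRCm38.p6 on the plus strand, are shown because heat shock factor acts through paired GAA and TTC units. Capitals mark GAANNTTC, which occurs 2 times, the nearer starting 97 bases before the start. Of 27025 windows 6.78% hold it on either strand; the other order, TTCNNGAA, is in 7.1% of windows and not in this one.
Hspb1: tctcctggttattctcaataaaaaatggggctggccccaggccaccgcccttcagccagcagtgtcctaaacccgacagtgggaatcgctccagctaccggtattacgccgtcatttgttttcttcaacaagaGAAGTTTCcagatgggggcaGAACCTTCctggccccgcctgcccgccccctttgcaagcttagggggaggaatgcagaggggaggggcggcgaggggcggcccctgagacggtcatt

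Genes of cells of the vessel wall also lay above 0. Of 16 smooth muscle and pericyte genes 13 lay above 0, 5 with an unadjusted p under 0.05 (median 0.38), and of 20 endothelial genes 17 and 4 (median 0.22). After subtracting each gene's length quintile the medians were 0.28 and 0.21. Tagln, an actin-binding protein gene of smooth muscle, had 716, 718 and 892 normalised reads in the deficient libraries against 457, 451 and 514, without overlap, and did not pass (DESeq2 adjusted p 0.063). Actg2, the gene of enteric smooth muscle actin, had 1555, 1658 and 1828 against 908, 1064 and 1749, so that wildtype library 3 lay within the deficient range. Without wildtype library 1 the median over the 7 smooth muscle members with solved reads went from 0.39 to 0.20. The median over the 6 endothelial ones went from 0.35 to 0.62 without wildtype library 3.

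B cell genes lay mostly below 0. Of 20 B cell identity genes 4 lay above 0, none was called, 5 had an unadjusted p under 0.05, all lower, and the median was -0.12. Less the median of each gene's length quintile it was -0.22, with 0 of 18 genes above their quintile. Cr2, the complement receptor gene of marginal zone and follicular B cells, was at -0.43 ± 0.13, Bank1, a scaffold of B cell receptor signalling, at -0.45 ± 0.14 and Pax5, the B lineage transcription factor gene, at -0.38 ± 0.12 in the authors' deposited table. Mef2c, the gene of a transcription factor used by B cells, endothelium and muscle, had 3549, 3560 and 3030 normalised reads in the deficient libraries against 4782, 5131 and 5397. It fell by 0.59 ± 0.14 (log2) in the authors' deposited table (DESeq2 adjusted p 0.0407), without overlap, and its longest transcript is in the longest quintile, relative to whose median it was at -0.47. Ms4a1, which encodes CD20, is listed at 0. T cell identity genes had a median of 0.03, with 14 of 25 above 0, which was -0.14 after subtracting the length quintile and -0.05 as a mean weighted by the errors. Foxp3, the defining gene of regulatory T cells, is listed at 0. Of 13 regulatory and helper T cell genes 5 lay above 0 and the median was -0.02. Over the 10 with solved reads the median ran from -0.18 to 0.21 when a library was left out. The 2 of the list with an unadjusted p under 0.05 follow. Ikzf2, a regulatory T cell gene, had 280, 319 and 218 against 482, 416 and 411 and Il2ra, of the interleukin 2 receptor, 1938, 1756 and 1942 against 3154, 2358 and 2045, both without overlap and not called (unadjusted DESeq2 p 0.00181 and 0.0384).

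Antibody segments lay on both sides of 0. Igkv2-109, a kappa light chain variable segment, had 4769, 4227 and 5218 normalised reads in the deficient libraries against 2419, 2844 and 2954, and rose by 0.79 ± 0.16 in the authors' deposited table (DESeq2 adjusted p 0.0083). Igkv13-85 rose by 1.63 ± 0.38 in the authors' deposited table (DESeq2 adjusted p 0.0358), at a mean too high to solve. Looking at the whole families was a choice made after these values were seen. Of 114 kappa segments 2 rose, 77 lay above 0, 22 were higher and 4 lower at an unadjusted p under 0.05, and the log2 fold changes ran from -1.99 to 2.19. Of 116 heavy chain segments none was called, 60 lay above 0, and 10 were higher and 9 lower at that p. In 8 of 44 kappa and 11 of 48 heavy segments with solved reads, 1 library held over 2 times the next. Segments resemble each other, so reads may be split among them. Plasma cell genes lay above 0 in 16 of 20 (median 0.23), with none called, and Igkc, the kappa constant region, is listed at 0.

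Among the genes that fell, Scn11a, of a sodium channel known from sensory neurons, had 131, 131 and 130 normalised reads in the deficient libraries against 227, 241 and 235. It fell by 0.84 ± 0.19 in the authors' deposited table (DESeq2 adjusted p 0.0261). Gm4355, a predicted gene that RefSeq lists as a pseudogene, had 75.3, 52.1 and 66.8 against 151, 145 and 155. It fell by 1.21 ± 0.27 in the authors' deposited table (DESeq2 adjusted p 0.0194). Gm29461, which RefSeq lists as a long non-coding RNA, had 33.5, 62.8 and 53.7 against 176, 134 and 118. Gm49742 had 92.7, 86.6 and 97 against 160, 191 and 238. Gm29461 and Gm49742 fell by 1.53 ± 0.35 and 1.09 ± 0.26 in the authors' deposited table (DESeq2 adjusted p 0.0261 and 0.0361). The deficient libraries lay below the wildtype ones in each of these genes.

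Long non-coding RNAs of the nucleus lay mostly below 0. Of 14 nuclear and imprinted ones 4 lay above 0, none was called, 4 were lower and 1 higher at an unadjusted p under 0.05, and the median was -0.18. Malat1, an abundant RNA of nuclear speckles, was at -0.66 ± 0.16 in the authors' deposited table (DESeq2 adjusted p 0.058). Airn, an imprinted antisense RNA, had 1021, 991 and 908 normalised reads in the deficient libraries against 1272, 1503 and 1476, and Meg3, an imprinted RNA, 276, 225 and 236 against 311, 451 and 477. H19, also imprinted, lay the other way, with 115, 331 and 168 against 102, 113 and 97.7.

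Libraries of total RNA depleted of ribosomal RNA from spleens of the same mice gave other values. There Malat1 was at -0.08 ± 0.17, Airn at -0.20 ± 0.14 and Meg3 at -0.32 ± 0.24 (log2, SE) in the authors' deposited table of long non-coding RNAs, nearer to 0 than in poly-A RNA. These RNAs were named for their small p in poly-A RNA, and such a choice favours values nearer to 0 in other libraries. H19, at 1.15 ± 0.72 in the same authors' deposited table, was farther from 0. Over the 13 nuclear and imprinted RNAs that both tables list, the median was -0.18 in poly-A and -0.08 in depleted libraries, beside -0.06 and 0.04 over all 2459 shared names at a mean of 10 or more. Gm29461 was at -0.62 ± 0.30 and Gm49742 at -0.33 ± 0.22 in the authors' deposited table of the depleted libraries, with the sign of the poly-A values. No RNA passed in the depleted libraries by DESeq2 (smallest adjusted p 0.226), and 245 had an unadjusted p under 0.05. These values are over all of that comparison, with 10040 named RNAs, and not over the shared names alone. The difference between the 2 kinds of library was not tested.

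Lists of short transcripts need the length values beside them. Nuclear genes of respiratory chain subunits lay above 0 in 65 of 72, 2 with an unadjusted p under 0.05, with a median of 0.24, which was 0.06 after subtracting each gene's length quintile. Ribosomal protein genes had a median of 0.09, with 46 of 72 above 0 and none with an unadjusted p under 0.05, and -0.10 after that subtraction. The 13 genes encoded by mitochondrial DNA had 2 above 0 and 3 lower at an unadjusted p under 0.05 (median -0.17). None of these 3 lists held a call.

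Pancreatic RNA was present in the spleen libraries. The 26 exocrine pancreas genes tested held 6.24% of the summed level, with log2 fold changes of 0.12 to 2.52, a median SE of 2.29 against 0.238 over all genes, and a smallest unadjusted p of 0.259. Ins2, an insulin gene, had 409, 90.2 and 15.1 normalised reads in the deficient libraries against 14.7, 1058 and 803. Ins2 thus differed between libraries of 1 genotype and was low in deficient library 3 and wildtype library 1. No exocrine gene had solved reads, so the exocrine share per library is unknown, and the part of pancreatic RNA in other genes was not tested.

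The spleen was set beside the 4 other organs of the same mice, gene by gene, with a two-sided z test of the difference between deposited log2 fold changes and Benjamini-Hochberg adjustment over all genes. The change differed from brain for 1 of 31119 genes (0.00321%), from heart for 8 of 30295 (0.0264%), from kidney for 11 of 31708 (0.0347%) and from liver for 38 of 30115 (0.126%). Hspb1 was the gene that differed from brain, where it was at -0.53 ± 0.23 in the authors' deposited table (spleen minus brain 1.63 ± 0.29, adjusted p 0.000972 by z test). Its differences from heart, kidney and liver were 0.99 ± 0.24, 0.97 ± 0.24 and 0.59 ± 0.53 and did not pass. Prtn3 was at -1.48 ± 0.48 in liver in the authors' deposited table, and the difference of 3.20 ± 0.60 passed (adjusted p 0.000366 by z test). Wfdc21, in liver at a mean of 54901, was at -0.22 ± 0.19 there in the authors' deposited table and also differed from spleen (1.66 ± 0.37, adjusted p 0.0105 by z test). Ftsj1 itself was at -2.70 ± 0.10 in brain, -3.36 ± 0.28 in heart, -2.84 ± 0.13 in kidney and -3.51 ± 0.15 in liver in the authors' deposited tables, and no difference from spleen passed. For the remaining called genes the differences did not pass in any organ. Many were scarce outside spleen: Prg2 had a mean of 1.24 in liver and 14.2 in kidney against 1994 in spleen. Relation to transcript length was not shared by all organs, with Spearman's rho of -0.40 in heart, -0.05 in kidney, 0.13 in brain and 0.18 in liver.

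**Figure D5:**
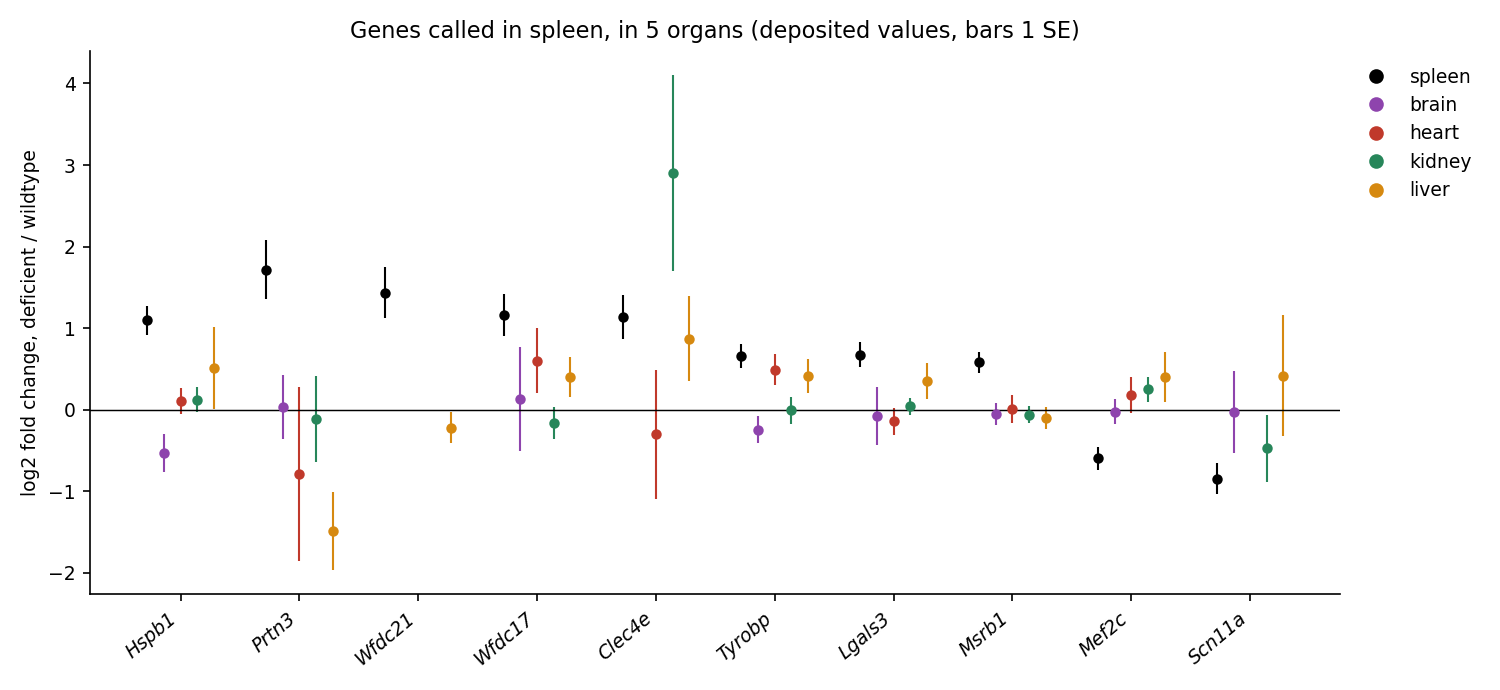
Deposited log2 fold change with its standard error (Ftsj1-deficient minus wildtype, vertical axis) of 10 called spleen genes in spleen and the other organs, shown where the gene's mean level was 10 or more. Hspb1 is at 1.10 in spleen and -0.53 in brain, and Prtn3 at 1.72 in spleen and -1.48 in liver.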

How the data were processed

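Poly-A RNA of whole spleen was measured in 3 Ftsj1-deficient and 3 wildtype mice. Per the labels' protocols, tissue was pulverised in a bead mill, RNA was extracted with phenol and libraries were made with a stranded mRNA kit. The submitters' processing notes name GRCm39, featureCounts, Subread 2.0.3 and DESeq2. The sources used here do not name the annotation or other settings.

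The authors deposited 1 comparison per organ and no value per library. The mean signal that the authors deposited is DESeq2's mean of normalised counts over the 6 libraries, as the file headers name it. The deposited log2 fold change is deficient minus wildtype, unshrunk, with its standard error in log2 units. The deposited score is a Wald statistic, and the authors' p-value comes with a Benjamini-Hochberg adjusted one. Of the 55290 named genes 22513 are listed at 0, 31 have no p as count outliers and 22947 have an adjusted p. An entry without a name, which holds 6.74e-07% of the summed level, was left out.

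A gene was called at a deposited adjusted p under 0.05. Size factors were read from 1710 features with 1 read in 1 library, and their product of 1.06 is near the 1 that the method gives. Reads were solved in Python 3.11.15 (numpy 2.4.6) as sets of 6 whole numbers that give the deposited mean; of these the one was kept that also gives the deposited fold change when fitted by the authors' negative binomial model, with the dispersion that the deposited standard error implies. The procedure was tested on simulated data. Genes without a solution are mostly abundant or variable, so counts over solved genes do not stand for them. Normalised reads carry counting error, which is largest for the lowest values.

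Members of 59 gene lists (1276 symbols, 1271 matched, 1 of them by a synonym) were described at a mean of 10 or more by counts and medians beside those of all genes, with no test over a list. The lists, the choice of this comparison and its rules were made with earlier results of these data known. Genes are named by a rule: Ftsj1, all called genes, the 10 per direction with the smallest p beyond those, up to 4 members per list with the largest Wald statistic, defining markers at 0 and, between organs, called genes and 5 per organ with the smallest p. A result of this rule is not reported here. The text leaves out some others, and other list members were named after their values were seen, to show the order of libraries. limma 3.58.1 in R 4.3.3 was run on the solved reads with a pseudocount of 1. Differences between organs were tested by z from 2 deposited fold changes and their errors, as if independent. Transcript lengths come from an annotation of GRCm38, matched by symbol, and promoter windows from RefSeq, GRCm38.p6, not the build of the deposited table. Alternatives were another threshold or adjustment set, filters on the mean, shrinkage, leaving out each library, voom weights and a length adjustment; those on solved reads and length were chosen after seeing the data.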

Additional observations from a re-analysis of the deposited data

Results flagged for a closer look

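The genotype difference in spleen was set against that in each other organ of the same mice by a z test (Benjamini-Hochberg over all genes). It differed from brain for 1 gene, from heart for 8, from kidney for 11 and from liver for 38. Of these, 17 are listed here: the called spleen genes that passed and, per organ, up to 5 genes with the smallest p. All values are log2 fold changes in spleen minus those in the other organ, from the authors' deposited tables.

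Against brain, Hspb1 differed by 1.63. Against liver, Prtn3 differed by 3.20 and Wfdc21 by 1.66. All 3 were called in spleen.

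Against heart, the antibody genes Igkv14-126, Ighv9-3 and Ighg3 differed by 4.82, 8.22 and 7.18. Their means were 87.6, 23.3 and 33.0 in heart against 10190, 13573 and 119061 in spleen, so that the heart values rest on few reads. Serpina3b, a serpin gene, differed by 7.31, with a heart mean of 14.4. Hsd17b7, of cholesterol synthesis, differed by -1.04.

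Against kidney, Vwa1, a matrix protein gene, differed by 1.18, Il34, a cytokine gene for macrophages, by 1.34 and Ace, of angiotensin-converting enzyme, by 0.96. The predicted gene Gm49692 differed by 2.43. For Il34, the spleen value was 0.46 ± 0.13 and the kidney value -0.88 ± 0.13 (SE).

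Against liver, Rab38 differed by 2.05, Nat8f7 by 3.70, Serpine2 by 1.66 and Hmgn3 by 2.07, and Rab30 by -1.44. In all 5 the deposited liver value was farther from 0 than the spleen value. None of the genes named here from heart, kidney or liver, other than Prtn3 and Wfdc21, was called in spleen.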

How the results depend on the processing

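The 17 calls became 3 at an adjusted p under 0.01, 33 at 0.1 and 33 when adjusted over the 5 organs, and 13 to 21 under other filters on the mean. limma called 1 gene, Ftsj1, where the deposited DESeq2 test called 9 of the same genes, and 1 without any library in turn (range 1 to 1). Ftsj1 was at -2.93 after shrinkage and between -3.57 and -3.36 without each library. The cause was not tested for either. Genes differing from brain went from 1 to 3 at a mean of 10 or more and to 3 when adjusted over the 4 pairs. With correlated errors heart went from 8 to 17 and kidney from 11 to 26. Kidney gave 19 at a mean of 10 or more, and liver went from 38 to 25 over the 4 pairs and to 55 at a mean of 10 or more. Other filters changed the number of genes tested. None of these results changed sign. No paired analysis was possible because the deposited values do not tie libraries to mice or litters.

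Of 197 values of single named genes, 178 moved by less than 1 SD between libraries, estimated from the deposited error; Prtn3 went to 0.98 after shrinkage and 2.22 without wildtype library 3, and D830044D21Rik from -4.60 to -1.99 without wildtype library 2. Medians over solved members changed sign in 17 of 46 lists when a library was left out. Of 177 medians of all tested members under other filters on the mean or as weighted means, 6 in 5 lists changed sign, such as hepatocytes from 0.31 to -0.20 at a mean of 1 or more and T cell identity from 0.03 to -0.05 as a weighted mean. For ribosomal proteins the range was -0.16 to 0.34 and for respiratory chain subunits -0.07 to 0.32. Depth limits genes at low level, where 1 library can hold most reads, as for Gm50128 with 93.4 normalised reads in wildtype library 2 and at most 5.50 in the others.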

Other observations

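The 20 genes with the smallest p among those not called, 10 in each direction, were also looked at. Those with solved reads, except D830044D21Rik, had levels that did not overlap between the genotypes. Choosing genes by a small p favours such levels. Over all genes with solved reads at a mean of 10 to 1500 the deficient libraries were above for 5.57% and below for 6.4%. Lif, which encodes leukemia inhibitory factor, had 321, 370 and 358 normalised reads in the deficient libraries against 196, 229 and 190. Nog, of the bone morphogenetic protein antagonist noggin, had 181, 186 and 201 against 102, 112 and 82.5. Pdzd2 had 2060, 1902 and 1804 against 2897, 3190 and 2526. D830044D21Rik rested on 1 library, with 196 normalised reads in wildtype library 2 and at most 19.3 in the others. None of these passed the authors' DESeq2 test (adjusted p 0.0611, 0.0718, 0.139 and 0.0611).

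Of the 59 lists 54 held no gene called by the authors' DESeq2 test. Slfn4, a Schlafen gene of myeloid cells, had 2313, 1852 and 1351 against 475, 1006 and 972, while the 8 Schlafen genes as a list had a median of 0.08.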
